A study of Mus musculus with 24 samples.

Results

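The genes of the phosphocreatine and adenine nucleotide system were compared in the *M. gastrocnemius* of mice kept in normal or low oxygen. The 10 genes were chosen by name, as *Ckm*, *Ckmt2*, *Ckb*, *Slc6a8*, *Gatm*, *Gamt*, *Ak1*, *Ampd1*, *Ampd3* and *Adssl1*, and were read by 13 of the 55681 probes on the array. A total of 9 of these probes, for 8 of the genes, were bright enough to be tested among 9186 genes. The brightest probe that passed stood for its gene. The probe of *Gatm* and both probes of *Ampd3* were too dim.

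The Norm group was 12 mice in 20.9% oxygen and the Hypox group 12 mice in 12% oxygen, both for 6 h and both fasted. All were male C57BL/6JOlaHsd mice without a transgene, which arrived at 10 weeks of age, were housed alone and then received a low-fat diet (10% of energy as fat). For the last 6 weeks before the exposure all of them ate a high-fat diet (40% of energy), so that Norm mice too were fasted and fat-fed. Each array carried the Cy5-labelled RNA of 1 whole muscle against a Cy3-labelled reference pool made from all samples. A log2 ratio is therefore the level of a probe in 1 mouse relative to that pool, and fewer cells of a type cannot be told apart from less RNA per cell. Precision is limited by how many arrays there were.

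Each of the 6 slides held 4 arrays, 2 per group. An array's mean Cy5 signal was between 58.3 and 933 among Norm mice, between 63.5 and 1014 among Hypox mice, and lowest on slide 1. All 10 markers of fast muscle fibers were well above background on all 24 arrays of this calf muscle, while none of the 6 markers of liver and kidney passed the filter. Lower levels in Hypox were seen for 3 of 6 peripheral nerve markers (such as *Pmp22*) and 2 of 4 adipocyte markers tested (such as *Cfd*). Higher levels were seen for 2 of 7 slow fiber markers (such as *Tnni1*) and 1 of 10 fast fiber markers (*Mylpf*). All of these passed at an unadjusted P-value under 0.05 only, at which 4.96% of all genes passed as lower and 7.08% as higher. Over the 7 slow fiber genes the median difference was 0.38 on the log2 scale, and over the 10 fast fiber genes -0.24. The mean log2 ratio of the nerve list was between -0.37 and 0.48 on Norm arrays and between -0.58 and 0.18 on Hypox arrays. That of the slow fiber list was between -2.11 and 0.54 and between -0.30 and 0.18. Their part in the results was not tested.

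Muscle holds ATP nearly constant by moving phosphate from phosphocreatine to ADP, a reaction of creatine kinase. The cytosolic muscle enzyme is encoded by *Ckm*, the mitochondrial enzyme of striated muscle by *Ckmt2* and the brain type by *Ckb*. Creatine itself is made largely outside muscle by the enzymes of *Gatm* and *Gamt* and taken up by the transporter of *Slc6a8*. When ADP rises, adenylate kinase (*Ak1*) recovers ATP from it and leaves AMP, which AMP deaminase (*Ampd1* in muscle, *Ampd3* as the erythrocyte type) turns into IMP. Adenylosuccinate synthase of muscle (*Adssl1*) and the lyase *Adsl* return IMP to AMP, and together these reactions form the purine nucleotide cycle.

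The probes are 60 bases long, and positions are given on build mm9 of the mouse genome. The sequences shown are those of the 3 creatine kinases, because 2 of them are alike, and that of *Ampd1*. In the *Ckm* probe and the brighter *Ckb* probe, capitals mark the bases that differ when bases 1 to 56 of the former are laid on bases 5 to 60 of the latter.
*Ckm*: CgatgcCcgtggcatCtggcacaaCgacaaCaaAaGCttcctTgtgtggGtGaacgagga
*Ckb*: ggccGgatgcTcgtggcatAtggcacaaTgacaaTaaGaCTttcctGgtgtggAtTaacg
*Ckb*, dimmer probe: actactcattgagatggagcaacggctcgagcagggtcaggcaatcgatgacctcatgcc
*Ckmt2*: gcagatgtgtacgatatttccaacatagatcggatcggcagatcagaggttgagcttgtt
*Ampd1*: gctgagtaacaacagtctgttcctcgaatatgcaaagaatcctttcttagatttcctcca
The *Ckm* and *Ckb* probes shared 45 of 56 aligned bases, with 11 differences. No other pair of probes from different members shared more than 25 bases in an ungapped alignment.

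The *Ckm* probe lies on the plus strand of chromosome 7, and its ends map to 20002222 and 20004829, a span of 2608 bases that shows it to cross an intron. The *Ckmt2* probe (chromosome 13, 91993242 to 91995390, minus strand) and the brighter *Ckb* probe (chromosome 12, 112908459 to 112909105, minus strand) also cross an intron. The dimmer *Ckb* probe (chromosome 12, 112907787 to 112907846) and that of *Ampd1* (chromosome 3, 102902649 to 102902708, plus strand) lie in 60 contiguous bases. The probes of *Slc6a8* (chromosome X, 70927775 to 70927834), *Gatm* (chromosome 2, 122420814 to 122420873), *Ak1* (chromosome 2, 32490509 to 32490568) and *Adssl1* (chromosome 12, 113879491 to 113879550) are contiguous too. For *Gamt*, the probes on chromosome 10 (79720897 to 79720956 and 79720903 to 79720962) share 54 bases and are not independent. For *Ampd3*, one probe starts at base 3154 of its transcript (chromosome 7, 117954980 to 117955039) and the other reads a separate cDNA (117938163 to 117938222).

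None of the 8 genes passed the study's threshold, an unadjusted P-value under 0.05, after 6 h of hypoxia: 0 of 8 with limma's moderated test and likewise by the methods' t-test. Of all 9186 genes tested, 1106 (12.0%) passed with limma and 32 (0.348%) passed after Benjamini-Hochberg adjustment. With the slide as a block it was again 0 of 8 members, beside 14.0% of all genes. Of the 8 differences, 5 were positive and 3 negative, with a median of 0.047 on the log2 scale, beside a median of 0.029 and 58.7% positive over all genes. The smallest P-value among the members was 0.150, for *Gamt*. The intervals below cover the spread between arrays for the loess ratios alone. Other normalizations of the same arrays gave some differences outside them. For *Ckmt2* the deposited values gave 0.48 on the log2 scale, where the upper limit with loess ratios was 0.41.

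The muscle creatine kinase *Ckm* had log2 ratios between -0.99 and 1.55 among Norm mice, around a median of -0.074, and between -0.64 and 2.18 among Hypox mice, around -0.10. The groups overlapped but for 2 Hypox arrays above all Norm arrays, and the 4 arrays of slide 1 were the highest. The Norm mean was 0.18 ± 0.84 and the Hypox mean 0.21 ± 0.96 (SD, n = 12 each). The difference was 0.038 on the log2 scale (SE 0.33, P-value = 0.911, limma), a fold of 1.03 with a 95% interval from 0.64 to 1.65. With the slide as a block this interval narrowed to 0.79 to 1.34.

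For *Ckmt2*, which couples mitochondrial ATP to creatine, the Norm arrays lay between -0.16 and 2.40 with a median of 0.54, and the Hypox arrays between 0.26 and 1.93 with a median of 0.63. Every Hypox array was within the range of the Norm arrays. The means were 0.77 ± 0.70 and 0.74 ± 0.44 (SD, n = 12 each), a difference of -0.039 (SE 0.22, P-value = 0.862, limma). The fold was 0.97, with a 95% interval from 0.71 to 1.33, or from 0.77 to 1.23 with the slide as a block.

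The brain type *Ckb* was well above background on 21 of 24 arrays. Norm mice had log2 ratios of -1.16 to -0.13, with -0.44 as the median, and Hypox mice of -1.03 to -0.080, with -0.27. The groups overlapped, with 3 Hypox arrays higher than any Norm array. With means of -0.56 ± 0.37 and -0.38 ± 0.31 (SD, n = 12 each), the difference was 0.18 (SE 0.13, P-value = 0.180, limma), a fold of 1.13 (95% interval 0.94 to 1.37). The Hypox arrays had the higher mean on 5 of 6 slides, with differences from -0.22 to 0.62. Under the slide block the P-value was 0.0861 (limma).

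*Ckb* was the only tested member whose call depended on the signal used. With the scanner software's processed signals in place of normexp and loess, its difference was 0.51 (SE 0.21, P-value = 0.0216, limma), when 12.5% of all genes passed, and with the slide as a block as well its P-value was 0.0144, when 16.8% passed. Its adjusted P-values there were 0.298 and 0.187. The lowest processed ratios of *Ckb* were -2.07 in Norm 4 and -1.96 in Norm 9, where loess gave -0.46 and -1.16. The spot of Norm 4 was not well above background, with a Cy5 signal of 29.2 beside a background of 28. The part of these arrays in the call was not tested. The Cy5 channel alone gave 0.27 (P-value = 0.0535, limma) and the deposited log2 values gave 0.24 (P-value = 0.0833). The dimmer *Ckb* probe, at 1.91 times the background and well above it on 9 arrays, read between -0.43 and 0.10 among Norm arrays and between -0.53 and 0.34 among Hypox arrays. Its difference was 0.10 (SE 0.085, P-value = 0.235, limma without a filter).

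**Figure D1:**
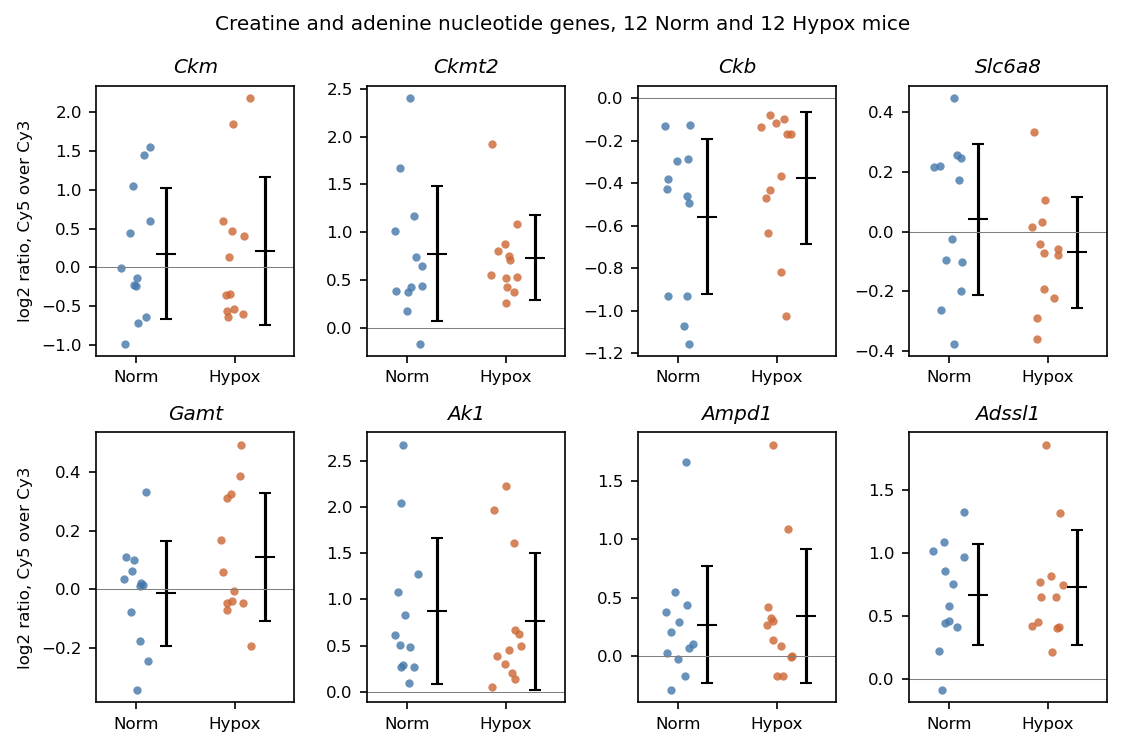
Log2 ratio of Cy5 over Cy3 (vertical axis, a scale of its own in each panel) of the 8 tested genes in each of the 12 Norm and 12 Hypox mice, each point an array, with the mean ± SD in black. The groups overlap in every panel, and some arrays far above the rest are seen for *Ckm*, *Ckmt2*, *Ak1*, *Ampd1* and *Adssl1*. For *Ckm* these are all arrays of slide 1, and for *Ak1* all arrays of slide 1 and Hypox 8.

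Among the genes that supply creatine, the transporter *Slc6a8* was read on all 24 arrays. Norm mice lay at -0.38 to 0.45 on the log2 scale (median 0.074) and Hypox mice at -0.36 to 0.33 (median -0.065), with every Hypox array inside the Norm range. Means of 0.041 ± 0.25 for Norm and -0.070 ± 0.19 for Hypox (SD, n = 12 each) gave a difference of -0.11 (SE 0.091, P-value = 0.235, limma). As a fold this was 0.93, with a 95% interval from 0.81 to 1.05.

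*Gamt*, which methylates guanidinoacetate to creatine, was well above background on 22 arrays. The log2 ratios were -0.34 to 0.33 in the Norm mice (median 0.018) and -0.19 to 0.49 in the Hypox mice (median 0.027), and 2 Hypox arrays exceeded every Norm array. The means of -0.013 ± 0.18 and 0.11 ± 0.22 (SD, n = 12 each) differed by 0.12 (SE 0.084, P-value = 0.150, limma), a fold of 1.09 (95% interval 0.97 to 1.23). Hypox was the higher group on 5 of 6 slides. The overlapping probe gave 0.16 (SE 0.099, P-value = 0.114, limma over probes).

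*Gatm*, which makes guanidinoacetate, was at 1.79 times the local background, under the limit of 2. The scanner software called it well above background on 6 Norm and 3 Hypox arrays. Among Norm mice its log2 ratio was -0.22 to 0.28 with a median of 0.033, and among Hypox mice -0.41 to 0.21 with a median of -0.14, with 4 Hypox arrays below every Norm array. Without a filter the difference was -0.15 (SE 0.068, P-value = 0.0397, limma), when 8.68% of 22328 genes passed, with an adjusted P-value of 0.545, when 0.0358% of genes passed the adjustment. Hypox was lower on 5 of 6 slides. With 1 array left out at a time, the P-value was between 0.0108 (without Hypox 9) and 0.0798 (without Hypox 12) and was under 0.05 in 13 of 24 fits. It was over 0.05 without Norm 1, 5, 6, 10 or 12 or without Hypox 2, 4, 5, 7, 11 or 12. With the processed signals the difference was -0.24 (P-value = 0.401, limma) and on the deposited values -0.34 (P-value = 0.0218, limma). The *Gatm* spot had a Cy3 signal of 214.9 on Hypox 6 and 308.8 on Hypox 10, beside at most 176.7 elsewhere. Hypox 6 and Hypox 10 also had the highest Cy3 signals for the *Ampd3* probes and the dimmer *Ckb* probe. The deposited values of *Gatm* there were 5.31 and 5.23, beside 6.02 and 5.83 in Norm 2 and Norm 8 of the same slide. The loess ratios there were -0.11 and 0.076. The part of these spots in the deposited result was not tested. The direction of *Gatm* turned with median centring (0.015), where the median of all genes tested was 0.25. Relative to that median *Gatm* was at -0.235. The call was lost with Cy5 alone (-0.12, P-value = 0.141, limma), with the replicate number as a block (P-value = 0.0617) and without slide 1 (P-value = 0.0934). It was kept with the slide as a block (P-value = 0.0367, limma), with array weights (P-value = 0.0466) and with Cy5 alone and the slide as a block (P-value = 0.0149). The methods' t-test on the ratios kept it too (P-value = 0.0426).

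*Ak1*, the adenylate kinase of the muscle cytosol, had log2 ratios between 0.098 and 2.67 among Norm mice (median 0.56) and between 0.055 and 2.23 among Hypox mice (median 0.48). The groups overlapped, and 19 arrays lay at 1.27 or below. The 5 others, at 1.61 or above, were the 4 arrays of slide 1 and Hypox 8 on slide 2. The *Ak1* spot of Hypox 8 had a Cy3 signal of 11061, beside 44686 to 83299 on the other arrays, a Cy5 background of 344, beside 24 to 33, and a Cy5 signal of 24211, within the range of the others. With the processed signals it was at 2.43, and all other arrays were at 0.68 or below. The means of 0.87 ± 0.79 and 0.76 ± 0.74 (SD, n = 12 each) differed by -0.11 (SE 0.28, P-value = 0.707, limma), a fold of 0.93 with a 95% interval from 0.62 to 1.39. Without Norm 4 the difference was 0.055, and without Hypox 8 it was -0.24.

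In the purine nucleotide cycle, AMP deaminase *Ampd1* spread over -0.29 to 1.66 among Norm mice (median 0.16) and -0.17 to 1.81 among Hypox mice (median 0.20), on the log2 scale. The groups overlapped, and Norm 4, Hypox 2 and Hypox 4 stood above the other arrays. The means were 0.27 ± 0.50 and 0.34 ± 0.57 (SD, n = 12 each), a difference of 0.071 (SE 0.20, P-value = 0.728, limma) and a fold of 1.05 (95% interval 0.79 to 1.40). For the synthase *Adssl1* Norm mice lay between -0.091 and 1.32 (median 0.67) and Hypox mice between 0.21 and 1.86 (median 0.65), with 1 Hypox array above all Norm arrays. Its means of 0.67 ± 0.40 and 0.73 ± 0.46 (SD, n = 12 each) differed by 0.056 (SE 0.16, P-value = 0.733, limma), a fold of 1.04 (95% interval 0.82 to 1.31).

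Hypox 2 was the highest array for *Ampd1* and for *Adssl1* alike. Without it the differences turned to -0.062 and -0.047. No level of *Ampd3* was measured, since its probes, at 1.21 and 1.12 times the background, were well above it in Cy5 on 0 of 24 arrays. They were not well above background in either group, and no fold is given.

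**Figure D2:**
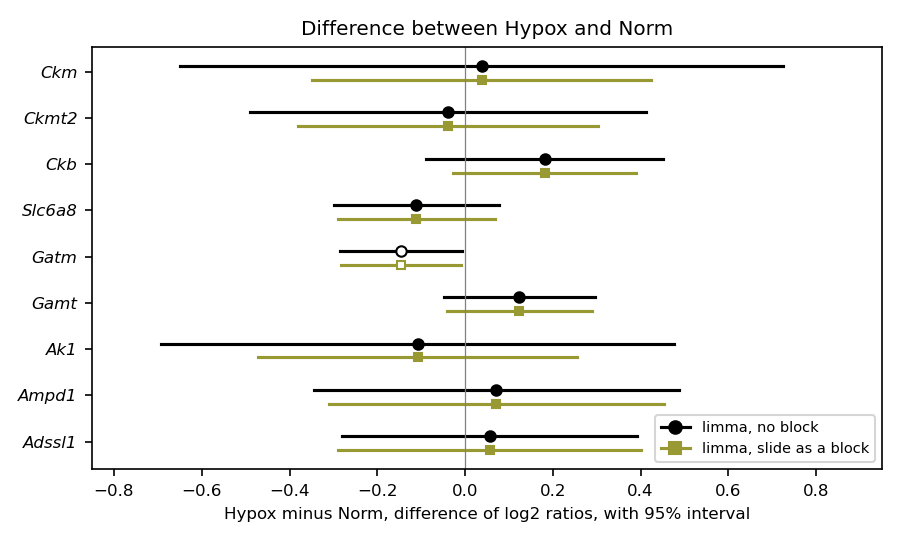
Hypox minus Norm difference of log2 ratios (horizontal axis) with its 95% interval for 9 genes, from limma without a block (black circles) and with the slide as a block (olive squares), open symbols marking *Gatm*, which was under the filter. All intervals but those of *Gatm* include 0, and the slide block narrows those of *Ckm* and *Ak1* most.

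The width of these intervals differed between the genes. The SD within groups was 0.90 for *Ckm*, 0.77 for *Ak1*, 0.59 for *Ckmt2*, 0.54 for *Ampd1* and 0.43 for *Adssl1*. These put *Ckm* at percentile 99.0, *Ak1* at 98.8, *Ckmt2* at 97.7, *Ampd1* at 96.8 and *Adssl1* at 92.3 of all genes tested, whose median SD was 0.24. By contrast *Ckb* was at percentile 81.6, *Slc6a8* at 43.0 and *Gamt* at 29.1. On these loess ratios the genes with wide spread were those of muscle-type enzymes, and those near or below the median were the transporter and *Gamt*. The former also had the brighter probes, at 148 to 823 times the background, beside 4.15 to 56.2 for *Ckb*, *Slc6a8* and *Gamt*. This order was not kept with the processed signals, where *Adssl1* had the lowest SD (0.16) and *Ckb* the highest (0.53).

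Much of the spread lay between slides. The slide took up 75.4% of the spread within groups for *Ckm*, 69.8% for *Ak1*, 56.4% for *Ckb* and 55.5% for *Ckmt2*, beside a median of 26.6% over all genes. On slide 1, the slide with the dimmest Cy5 signal, the mean ratio of *Ckm* was 1.76, while on the other slides it was between -0.42 and 0.37. For *Ak1* the mean was 2.07 on slide 1 and between 0.16 and 0.87 on the others, and for *Ckmt2* it was 1.59 beside 0.35 to 0.95. *Adssl1* had the lowest share of the 8 genes, 15.4%, though its mean on slide 1 (0.99) was also above those of the other slides (0.48 to 0.78). Since every slide held 2 arrays of each group, the slide and the group were not confounded.

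With the processed signals the SD within groups was smaller, 0.35 for *Ckm*, 0.47 for *Ak1*, 0.22 for *Ckmt2*, 0.33 for *Ampd1* and 0.16 for *Adssl1*, and slide 1 stood less apart. The mean of *Ckm* on slide 1 was then -0.23, beside -0.65 to -0.32 on the other slides. On that scale *Ckm* was higher in Hypox by 0.28 (SE 0.14, P-value = 0.0592, limma) and *Ckmt2* by 0.15 (SE 0.096, P-value = 0.133), and neither passed. The dimmer genes went the other way, since the SD rose to 0.53 for *Ckb* and 0.34 for *Gamt*. Leaving out the 4 arrays of slide 1 gave -0.058 for *Ckm* and 0.13 for *Ckmt2*, and 0 of 8 members passed. What sets the level of slide 1 was not tested.

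**Figure D3:**
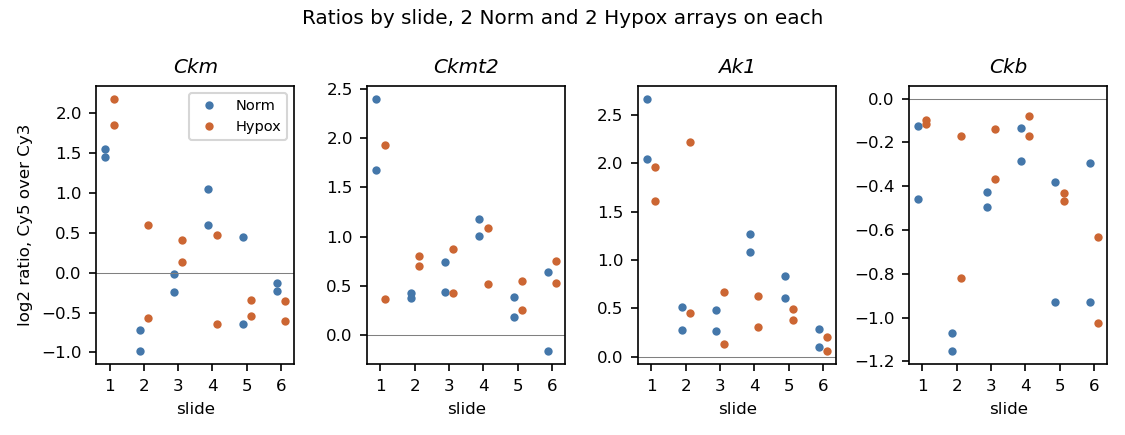
Log2 ratio of Cy5 over Cy3 (vertical axis, a scale of its own in each panel) by slide (horizontal axis) for *Ckm*, *Ckmt2*, *Ak1* and *Ckb*, 2 Norm and 2 Hypox arrays on each of 6 slides. The arrays of slide 1 lie above those of all other slides for *Ckm*, where the slide mean of 1.76 compares with at most 0.37 elsewhere, and 3 of the 4 are the highest for *Ckmt2*.

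The direction of the difference was not the same under every normalization for 3 of the 8 genes. *Ckmt2* was at -0.039 with loess ratios and positive with each of 4 other scales, from 0.15 to 0.66, and *Ak1* was at -0.11 and between -0.063 and 0.59 on those scales. The *Ak1* spot of Hypox 8 described above was at 2.43 with the processed signals, where all other arrays were at 0.68 or below. The part of this spot in the direction of *Ak1* was not tested. *Slc6a8* was negative with the processed signals (-0.11) and with Cy5 alone (-0.15), and positive with the deposited values (0.16) and median centring (0.32). Median centring moved the median of all genes to 0.25, so that relative to all genes *Slc6a8* differed by 0.072 there. *Ckm*, *Ckb*, *Gamt*, *Ampd1* and *Adssl1* were positive on all 5 scales. With the processed signals *Ampd1* was positive by only 0.00076 and *Adssl1* by 0.030, both below the median of all genes, 0.038. Of these 25 values 1 was under a P-value of 0.05, that of *Ckb* noted above.

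**Figure D4:**
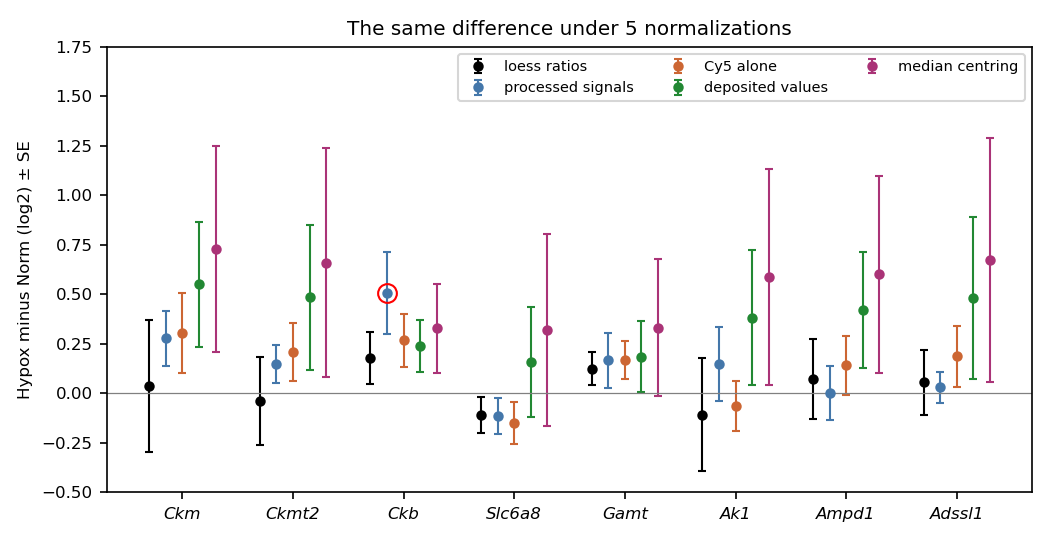
Hypox minus Norm difference ± SE (vertical axis, log2) of the 8 tested genes (horizontal axis) under 5 normalizations, each in its own colour, with a red ring where the unadjusted P-value was under 0.05. Only *Ckb* with the processed signals is ringed, at 0.51.

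Over the 24 arrays the members were compared with each other by their deviations from the group means, to describe whether they varied together between mice. Of 28 pairs, 21 correlated positively, with a median Pearson r of 0.32, beside 0.001 over all pairs of the 9186 genes. The 5th and 95th percentiles of r over all pairs of genes were -0.445 and 0.513. After adjustment over the 28 pairs, 6 passed by Pearson's r and 2 by Spearman's rho (100000 permutations of arrays within groups, 2-sided). These permutations exchanged arrays between slides, and how many of all pairs of genes would pass was not counted. When the slide means were removed as well, the median of the member pairs was 0.092, and 1 pair passed by r and 0 by rho. With the Cy5 channel alone the positive pairs were 13 of 28 and the median r was -0.082, so that the positive balance was not kept. All arrays share the reference pool and the normalization.

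That pair was *Ckm* and *Ckb*, whose probes are the alike pair shown above. Their Pearson r was 0.71 (permutation P-value = 0.00041, adjusted 0.00742) and their Spearman rho 0.79 (permutation P-value = 2e-05, adjusted 0.00056). Without the 2 arrays farthest from the median of *Ckm*, r was 0.74. Within slides, r was 0.65 (permutation P-value = 0.00045, adjusted 0.0126) and rho 0.60 (permutation P-value = 0.00443, adjusted 0.124), so that the rank measure did not pass the adjustment. Without the 2 farthest arrays this r was 0.58. Whether the likeness of the probes plays a part was not tested.

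**Figure D5:**
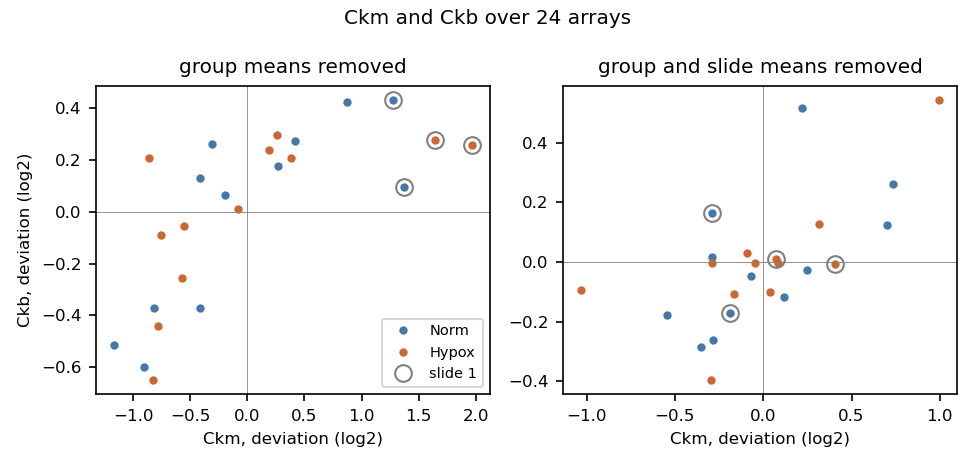
Deviation of *Ckb* (vertical axis, log2) against that of *Ckm* (horizontal axis, log2) in 24 arrays, from group means on the left and from group and slide means on the right, with the arrays of slide 1 ringed. The points rise together in both panels, with r of 0.71 and 0.65.

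*Ckm* and *Ckmt2* behaved otherwise. Their r of 0.63 (permutation P-value adjusted 0.00742) fell to 0.006 within slides. For *Ckm* and *Ak1* the r of 0.69 became 0.18, for *Ckmt2* and *Ak1* the r of 0.63 became 0.18, and for *Ckmt2* and *Adssl1* the r of 0.56 became 0.49, none of which passed within slides. With Cy5 alone the r was -0.27 for *Ckm* and *Ckmt2* and -0.55 for *Ckmt2* and *Ak1*, turned in direction, but 0.70 for *Ckm* and *Ak1*, 0.50 for *Ckmt2* and *Adssl1* and 0.55 for *Ckm* and *Ckb*. The pair of the purine nucleotide cycle, *Ampd1* and *Adssl1*, had an r of 0.68 (permutation P-value adjusted 0.00742) and 0.62 within slides (adjusted 0.538). Without the 2 arrays farthest from the median of *Ampd1* these were 0.46 and 0.44, so that the relation rested in part on those arrays, and with Cy5 alone the r was 0.018.

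The genes most like each member over the 24 arrays were found by the same r, as a description without a test. For *Ckm* these were *Gm6981*, a transcribed pseudogene in RefSeq (r = 0.96), the Z-disc gene *Myoz1* (0.94) and the tropomyosin gene *Tpm1* (0.93). Those nearest to *Ckmt2* were *Etfb* of electron transfer flavoprotein (0.93), ferritin heavy chain *Fth1* (0.91) and fast troponin *Tnni2* (0.91). *Ak1* was most like *Ndufa13* of complex I (0.83), the adenine nucleotide carrier *Slc25a4* (0.82) and *Myom2* of the M-band (0.81), and within slides these fell to between 0.35 and 0.46. Near *Adssl1* were the proteasome gene *Psmb5* (0.92) and *Ndrg2* (0.92), which within slides were at 0.94 and 0.93.

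*Ampd1* was nearest to *Gm13370* (0.90), *Gm5921* (0.86) and *Park7* (0.86). *Ckb* was nearest to *Pcgf1* (0.89), the retrieval receptor *Kdelr1* (0.89) and *Fiz1* (0.88). The nearest genes of *Slc6a8* were the isoleucyl-tRNA synthetase *Iars* (0.86), *Brd7* (0.86) and *Fam118b* (0.85), and those of *Gamt* were *Rint1* (0.78), the angiotensin receptor *Agtr1a* (0.72) and *Alg14* (0.70). No member was among the 3 nearest genes of another.

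Of 43 other genes listed for creatine, adenylate and purine metabolism, 30 were tested. The lyase of the cycle, *Adsl*, and the mitochondrial nucleoside diphosphate kinase *Nme4* passed as higher in Hypox. These 2 of 30 are near the share of all genes, 7.08%, and 0 passed as lower, beside 4.96%. Both are described below because they passed. None passed after adjustment in the main fit. The median difference over the 30 was 0.12, with 22 positive and 8 negative, beside a median of 0.029 and 58.7% positive over all genes.

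*Adsl*, which splits adenylosuccinate into AMP and fumarate, was read by a probe with ends at 80796591 and 80797579 on chromosome 15. Norm mice were at -0.71 to -0.041 on the log2 scale (median -0.20) and Hypox mice at -0.42 to 1.18 (median 0.066). The groups overlapped, and 8 of 12 Hypox mice were higher than any Norm mouse. How many of all genes separate as far was not counted. The means of -0.29 ± 0.25 and 0.12 ± 0.39 (SD, n = 12 each) differed by 0.41 (95% interval 0.15 to 0.67, P-value = 0.00290, adjusted 0.163, limma). The highest array was again Hypox 2, at 1.18, with the next at 0.33, and without it the difference was 0.32 (P-value = 0.00235). Hypox was higher on 5 of 6 slides.

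For *Nme4* the log2 ratios of Norm mice were -0.37 to 0.14 (median -0.16) and those of Hypox mice -0.28 to 0.24 (median 0.0090), with means of -0.15 ± 0.14 and 0.0054 ± 0.16 (SD, n = 12 each). The difference was 0.16 (95% interval 0.018 to 0.30, P-value = 0.0281, adjusted 0.341, limma), positive on 6 of 6 slides, and 3 Hypox mice exceeded all Norm mice. It was well above background on 13 arrays. The P-value was 0.0551 without Norm 10, 0.0551 without Hypox 4 and 0.0528 without Hypox 9 (limma). The call was also lost on the deposited values (0.094, P-value = 0.458), with median centring (P-value = 0.192), with array weights (P-value = 0.0614) and without slide 1 (P-value = 0.0505), while the processed signals gave 0.49 (P-value = 0.0259).

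Other genes with the largest differences in their lists did not pass. The brain-type mitochondrial creatine kinase *Ckmt1* differed by 0.21 (P-value = 0.126, limma), the guanylate kinase *Guk1* by 0.19 (P-value = 0.0595) and *Nme6* by 0.16 (P-value = 0.0679). In purine synthesis and salvage *Prps1* differed by 0.24 (P-value = 0.144), *Gart* by 0.15 (P-value = 0.0704), *Pnp* by 0.15 (P-value = 0.0909) and *Nt5c* by 0.14 (P-value = 0.0708). Of the carriers that exchange ADP and ATP across the inner mitochondrial membrane, *Slc25a4* differed by -0.26 (P-value = 0.418) and *Slc25a5* by 0.15 (P-value = 0.101).

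The RefSeq promoters (GRCm38.p6, 250 bases before to 50 after a start) hold 13 windows for 8 of the members, *Ckm*, *Ckmt2*, *Ckb*, *Gatm*, *Gamt*, *Ak1*, *Ampd3* and *Adssl1*. The core of the hypoxia response element, searched as ACGTG or GCGTG on both strands, was found in 9 of these windows and in 43.8% of all 32851 promoters. It occurred in a window of 7 of the 8 members, not in that of *Ckb*. *Ak1* and *Ampd3* have several windows each, so this count per gene cannot be set beside the share per promoter. The E-box CANNTG, which overlaps the core where its letters are CACGTG, was found in 11 windows and in 72.3% of all promoters. A match is a description of these letters.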

How the data were processed

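For 24 2-colour arrays, the authors deposited spot intensity (mean signal and local background of both dyes), written by Agilent Feature Extraction 10.7.3.1 (per the labels) without normalization between arrays. They also deposited log2 values for 21335 spots, which the authors made in GeneMaths XT. All columns had a median of 6.58 and correlated over spots with log2 Cy5 at 0.979 to 0.999 and with log2 Cy3 at 0.900 to 0.992. These correlations cannot tell how Cy3 was used, and the scaling stays unknown. Over spots their direction follows the Cy5 channel. The *Ak1* spot of Hypox 8, with a usual Cy5 signal (24211) and a low Cy3 signal (11061), had a deposited value of 16.5. On the other arrays it was at most 14.7.

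Where the dye label of a Hypox sample disagreed with its description, the description (Cy5 for the mouse, Cy3 for the pool) was used. Control spots and 7260 flagged readings were left out, and 0 were saturated. The mean signal was corrected by normexp (offset 50), ratios were normalized by loess within arrays, and replicate spots were averaged to 1 value a probe. Probes were matched to genes by accession (27235), symbol (3581) or synonym (565), and 24300 were left without a gene. The filter asked for mean Cy5 signal above 2 times local background and for no more than 4 missing arrays, and left 14421 probes. The probe with the highest mean intensity stood for its gene (1772 genes had over 1 probe). Hypox was compared with Norm by limma (lmFit and eBayes, no block) over all genes, with Benjamini-Hochberg adjustment. Members under the filter were taken from the fit without a filter.

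The members and lists were chosen with earlier results of these data known. Named were all members, each other listed gene past an unadjusted P-value of 0.05 with up to 2 more per list of those with the largest differences, up to 2 marker genes per list, and the 3 genes most correlated with each member, of which 1 is not reported here. The lists held other creatine, adenylate kinase, salvage, purine synthesis and carrier genes, and markers of fast and slow fibers, smooth muscle, nerve, adipocytes, red blood cells, macrophages, endothelium, lung, and liver and kidney. Of the lists not given in the report, 0 of 5 smooth muscle, 0 of 4 red blood cell and 0 of 2 macrophage genes tested passed, 1 of 2 endothelial genes (*Cdh5*, higher) and 1 of 1 lung gene (*Sftpc*, higher, well above background on 4 arrays) did.

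Alternatives were the processed signals, median centring, Cy5 alone, the methods' t-test, the deposited values, other filters, the mean of probes, blocks for slide and replicate number, array weights and leaving out arrays. The fit was tested on simulated data. R 4.3.3, limma 3.58.1, Python, pandas, numpy, scipy and matplotlib were used.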

Additional observations from a re-analysis of the deposited data

How the results depend on the processing

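The count of 0 members was kept in all alternatives but the processed signals, without and with the slide as a block, where 1 passed, *Ckb*. The latter setting and Cy5 alone with the slide as a block were chosen after seeing the data. Of all genes, 1106 passed unadjusted, and 32 with median centring (all higher, where 650 of the 1106 were), 729 with Cy5 alone, 489 with limma and 517 with the methods' t-test on the deposited values, 1939 without a filter and 1719 with array weights. After adjustment 32 passed, and 66 with processed signals, 0 with median centring, 12 with Cy5 alone, 1 with either test on the deposited values, 9 with the methods' t-test on the ratios, 8 without a filter, 62 with the slide block, 261 with array weights, 137 with processed signals and slide block, and 19 with Cy5 alone and slide block. With 1 array left out at a time, between 965 and 1280 genes passed unadjusted and between 4 (without Hypox 7) and 51 (without Norm 12) adjusted. Of the pairs of members, 6 passed, 1 with slide means removed, 28 with median centring and 4 with Cy5 alone.

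The differences that changed sign were all from members that did not pass, except *Gatm*, which was 0.015 with median centring (-0.235 relative to all genes tested). *Ckm* was -0.21 with array weights and -0.058 without the dim slide. *Ckmt2* was 0.15 with processed signals (without and with the slide block), 0.66 with median centring, 0.21 with Cy5 alone (without and with the slide block), 0.48 on the deposited values and 0.13 without the dim slide. *Slc6a8* was 0.32 with median centring and 0.16 on the deposited values. *Ak1* was 0.15 with processed signals (without and with the slide block), 0.59 with median centring and 0.38 on the deposited values. Its spot on Hypox 8 was far above the other arrays with processed signals (2.43) and on the deposited values (16.5, beside at most 14.7). *Ampd1* was -0.040 with array weights. With 1 array left out at a time, the range was -0.14 to 0.16 for *Ckm*, -0.15 to 0.11 for *Ckmt2*, -0.24 to 0.055 for *Ak1*, -0.062 to 0.20 for *Ampd1* and -0.047 to 0.12 for *Adssl1*. The cause of these changes was not tested. *Adsl* passed unadjusted in 38 of 39 alternatives (0.66, P-value = 0.0662, limma, with median centring) and *Nme4* in 30 of 38. With array weights, where 261 genes passed the adjustment, *Adsl* had an adjusted P-value of 0.0208 (limma). Apart from the settings named for them, the differences of *Ckb* and *Gamt* kept their sign and their side of the threshold.

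The deviations of the 12 pairs of arrays of equal replicate number correlated at -0.18 to 0.43, with 3 over 0.1. These values cannot tell whether the numbers stand for a pairing of the mice, so the main fit used no such block. With the number as a replicate block 1181 genes passed unadjusted and 11 adjusted, 0 of 8 members among them. The low signal of *Gatm*, well above background on 9 arrays, and of *Ampd3*, on 0, limits what can be said of these genes.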
